A study of Mus musculus with 2 samples.

Results

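The alpha and beta crystallins are a group of 8 genes, the alpha crystallins Cryaa and Cryab, the acidic beta crystallins Cryba1, Cryba2 and Cryba4, and the basic beta crystallins Crybb1, Crybb2 and Crybb3. Their members were found as every non-control probe whose RefSeq accession, as given by the scanner files, belongs to one of these symbols. All 8 genes were found, by 12 probes on 21 spots, among 20659 named genes, 55669 probes and 59305 spots. All 8 were lower on the array labelled Mef2d KO than on the WT array, by 3.40-fold to 6.23-fold, and each of the 12 probes had the same direction.

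The study measured RNA of mouse retina, dissected with forceps at postnatal day 14, on one-colour Agilent arrays. The groups were Mef2d KO retina (1 array) and wild-type (WT) retina (1 array). Mef2d is a gene of the MEF2 family of transcription factors, and the comparison asks how retinal expression differs when it is lost. The sources used here do not give the kind of Mef2d allele, the strain, or the sex and number of animals behind each array.

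Crystallins are the abundant soluble proteins of the lens, where their dense and ordered packing makes the tissue transparent. Alpha crystallins belong to the small heat shock proteins and act as chaperones that hold unfolding proteins in solution. Beta crystallins are structural proteins built of Greek key folds that join into larger assemblies. The same genes are also transcribed outside the lens, and in the retina they have been found in photoreceptors, Mueller glia, ganglion cells and pigment epithelium.

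Each group has a single array, so differences have no replicate check and carry no p-value. In this bulk tissue, fewer cells of a type and less RNA per cell cannot be told apart. Both arrays lay on the same slide and were scanned together. Array and genotype cannot be told apart, since each genotype has 1 array. The targeted gene did not check the labels. Mef2d differed by 0.43 ± 0.20 and 0.14 ± 0.21 (log2) by its 2 probes, so neither probe was lower in the KO-labelled sample, and the place of these probes relative to the deleted part is not stated in those sources. All directions are therefore those of the array labelled Mef2d KO. Xist, the RNA of the inactive X chromosome in females, was at least 26.9-fold and 52.6-fold higher on that array by its 2 probes, and the part of the animals' sex in the results was not tested. Of the spots, 69.6% were well above background on the array labelled Mef2d KO and 75.5% on the WT array, and 0 were saturated.

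Levels are log2 of the scanner software's processed signal minus the array's own 75th percentile, and differences subtract the WT level from that on the array labelled Mef2d KO. The error after ± is taken from the scanner software's own error model, covers the difference of a single spot on each array, and leaves out all variation between animals. The 2-fold limit takes the place of a test.

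The 5′ flanks of the crystallin genes are shown because the genes lie on several chromosomes and yet differed together. RefSeq promoter windows of GRCm38.p6, from 250 bases before to 50 after each annotated start, matched 7 of the 8 members by symbol. Cryab had no entry. Windows were searched on both strands for TGCTGA, the half-site of the MARE element, which large MAF proteins bind in lens promoters. The TATA box was searched as TATAAA. The MEF2 site was searched as its outer bases, CTA and TAG, with any 4 bases between them. The 120 bases before the start are printed for the 5 members with TGCTGA in that stretch and, for contrast, for Crybb2, which had neither of the first 2 motifs in its window. Capitals mark the half-site, on either strand, and the TATA box.
Cryaa, chr17:31677811-31677930, plus strand: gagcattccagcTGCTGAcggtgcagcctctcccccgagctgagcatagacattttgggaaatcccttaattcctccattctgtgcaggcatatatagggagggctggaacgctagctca
Cryba1, chr11:77725294-77725413, minus strand: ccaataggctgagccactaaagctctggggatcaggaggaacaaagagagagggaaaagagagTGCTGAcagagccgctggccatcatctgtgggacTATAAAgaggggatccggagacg
Cryba4, chr5:112252519-112252638, minus strand: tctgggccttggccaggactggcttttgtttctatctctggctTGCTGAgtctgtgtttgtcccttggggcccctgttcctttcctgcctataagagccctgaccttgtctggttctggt
Crybb1, chr5:112255700-112255819, plus strand: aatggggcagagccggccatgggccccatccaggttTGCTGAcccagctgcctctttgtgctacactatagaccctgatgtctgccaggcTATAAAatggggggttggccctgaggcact
Crybb3, chr5:113081585-113081704, minus strand: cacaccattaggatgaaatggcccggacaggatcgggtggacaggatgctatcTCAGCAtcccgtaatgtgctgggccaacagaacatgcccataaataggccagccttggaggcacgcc
Crybb2, chr5:113070118-113070237, minus strand: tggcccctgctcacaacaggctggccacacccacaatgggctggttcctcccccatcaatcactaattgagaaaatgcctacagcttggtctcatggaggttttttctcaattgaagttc

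TGCTGA stood in the windows of 6 of the 7 members and in 19.5% of all 32851 promoter windows of the same length. In Cryaa it began 108 bases before the start, in Crybb1 84, in Crybb3 67 and in Cryba1 57. Cryba4 held it at 3 places, 182, 135 and 77 bases before the start, and Cryba2 held it at 149. TATAAA stood in 3 of the 7 and in 13.6% of all windows. It began 30 bases before the start in Crybb1 and 23 in Cryba1. In Cryba2 it began 3 bases before the annotated start and ran across it. The searched form of the MEF2 site stood in 0 of the 7 and in 3.69% of all windows, which says only that its letters are not in these windows. The motifs do not overlap one another in the printed sequences, and a match is a description of letters and not a binding site.

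The alpha crystallins come first. Cryaa, the alpha crystallin largely restricted to lens, had a processed signal of 18041 on the array labelled Mef2d KO, against 75243 on the WT array. This is a difference of -2.15 ± 0.20, or 4.43-fold lower. A dimmer Cryaa probe had 105 on the array labelled Mef2d KO and 612 on the WT array, a difference of -2.62 ± 0.21. Both probes gave the same direction, and their differences were 0.48 apart, more than their combined error of 0.29.

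Cryab, the alpha crystallin that is also made in heart, skeletal muscle and glia, had 5896 on the array labelled Mef2d KO, against 19786 on the WT array. It was 3.57-fold lower (-1.83 ± 0.20). Its other probe had 1268 on the array labelled Mef2d KO and 3645 on the WT array (-1.61 ± 0.20). The probes of Cryab differed from each other by 0.22, within their combined error of 0.29.

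Among the acidic beta crystallins, Cryba1 offered the most precise reading, because its probe was printed at 10 places on the array. Cryba1 encodes the betaA3 and betaA1 proteins from the same messenger RNA. On the array labelled Mef2d KO its 9 accepted spots read 2986 at the lowest, 3077 at the median and 3256 at the highest. On the WT array its 10 spots read 13781 at the lowest, 14261 at the median and 14576 at the highest. The spots of the 2 arrays did not overlap, and the spots of an array had a coefficient of variation of 2.79% on the array labelled Mef2d KO and 1.65% on the WT array. The remaining spot on the array labelled Mef2d KO, flagged as an outlier by the software, read 3439 and also lay below every WT spot. Over the 9 places accepted on both arrays the difference ran between -2.37 and -2.24 with an SD of 0.044, which is the technical spread of spots and not that of animals. The probe's difference was -2.30, or 4.93-fold lower.

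**Figure D1:**
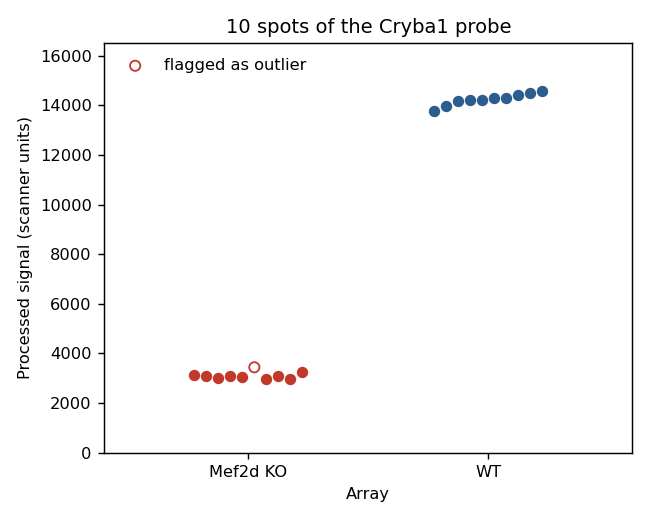
Processed signal (scanner units, linear axis from 0) of the 10 spots of the Cryba1 probe on the array labelled Mef2d KO (left, red) and on the WT array (right, blue). Each point is a spot and the open point is the spot flagged as an outlier. The accepted spots lie between 2986 and 3256 on the array labelled Mef2d KO, below all WT spots at 13781 to 14576.

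The other acidic beta crystallins were lower as well. Cryba2, the gene of betaA2, had 1045 on the array labelled Mef2d KO, against 5612 on the WT array, and was 5.71-fold lower (-2.51 ± 0.20). Cryba4, the gene of betaA4, had 1053 on the array labelled Mef2d KO, against 3541 on the WT array, and was 3.57-fold lower (-1.84 ± 0.20). The median of the 3 acidic members was -2.30.

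The basic beta crystallins held both ends of the order. Crybb2, which encodes the most abundant beta crystallin of the mature lens, had 1062 on the array labelled Mef2d KO, against 6227 on the WT array. It was 6.23-fold lower (-2.64 ± 0.20), more than any other member. A second Crybb2 probe had 584 on the array labelled Mef2d KO and 3664 on the WT array (-2.74 ± 0.20). Both probes were further from 0 than those of the other members, but the dimmer Cryaa probe, at -2.62 ± 0.21, was apart from them by less than the error.

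Crybb1, the gene of betaB1, a marker of lens fibre differentiation, had 992 on the array labelled Mef2d KO, against 3738 on the WT array. Its difference was -2.00 ± 0.20, or 4.01-fold lower. The second Crybb1 probe had 982 on the array labelled Mef2d KO and 3755 on the WT array (-2.02 ± 0.20), a gap of 0.02 between probes. Crybb3, the gene of betaB3, had 1836 on the array labelled Mef2d KO, against 5874 on the WT array, and was the least changed member at 3.40-fold lower (-1.77 ± 0.20). The 3 basic members had a median of -2.00, the 3 acidic ones of -2.30 and the 2 alpha crystallins of -1.99.

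**Figure D2:**
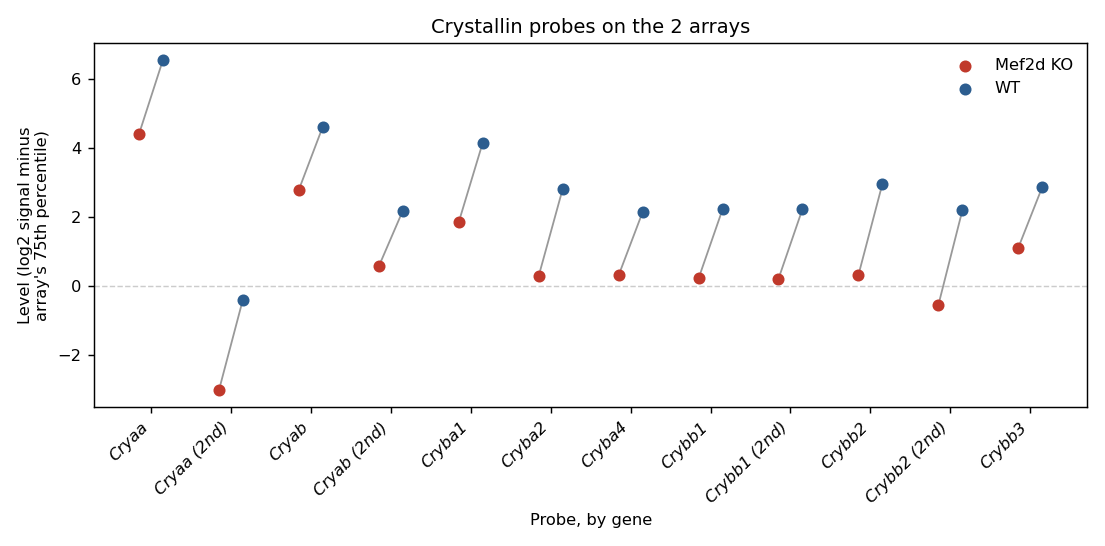
Level of each of the 12 crystallin probes (log2 signal minus the array's 75th percentile, dashed line at 0) on the array labelled Mef2d KO (red, left of each pair) and on the WT array (blue, right). "2nd" marks the dimmer probe of a gene, and each red point is below its blue one. Levels of different probes are not comparable with each other.

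All 8 members passed 2-fold lower and 0 passed 2-fold higher, with a median of -2.07 (4.21-fold lower). Among the 16187 genes that both arrays read well above background, 281 (1.74%) passed 2-fold lower and 100 (0.618%) passed 2-fold higher, and the median was -0.006. These counts were 170 lower and 151 higher with median scaling, which moved the median of all genes to 0.17, and the members stayed between -2.46 and -1.59 there. At 4-fold, 5 of the 8 members passed, Crybb2, Cryba2, Cryba1, Cryaa and Crybb1, against 0.272% of all genes, and Crybb1 lay at the limit (-2.00). The 8 representative probes were bright, and among the 8522 genes with a mean level above 0, where they lie, 59 (0.692%) passed 2-fold lower and the central 90% of genes lay between -0.29 and 0.34. Ordered from the lowest difference upward, the members took places 24 (Crybb2) to 61 (Crybb3) of the 16187 genes.

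Within the family the order of differences was Crybb2, Cryba2, Cryba1, Cryaa, Crybb1, Cryba4, Cryab and Crybb3. No 2 neighbours in this order differed by more than their combined error of 0.29, the widest step being 0.21 between Cryba2 and Cryba1. The ends of the order, Crybb2 and Crybb3, were 0.87 apart, beyond that error.

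**Figure D3:**
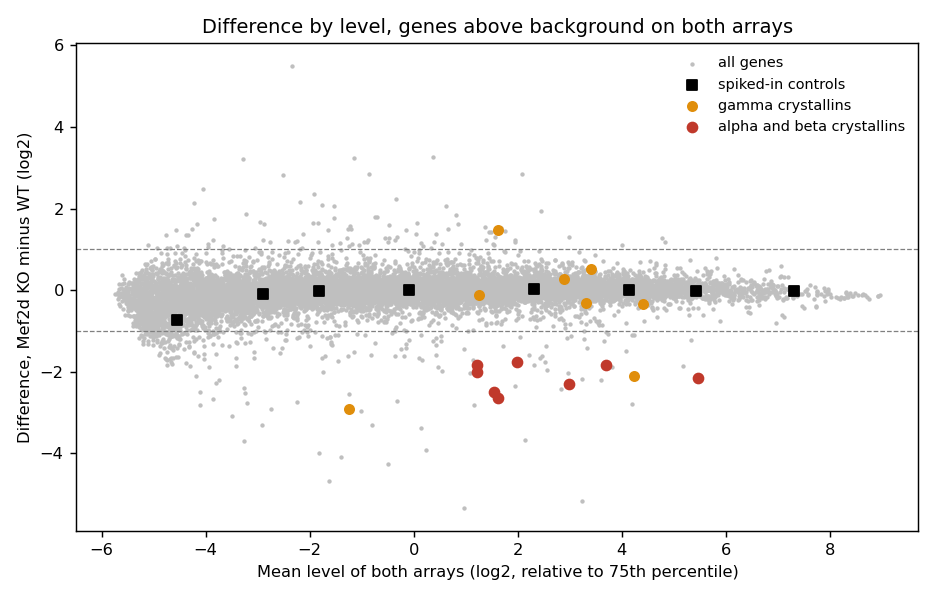
Difference (array labelled Mef2d KO minus WT, log2) against the mean level of both arrays for all 16187 genes above background on both (grey), the gamma crystallins (orange), the alpha and beta crystallins (red) and spiked-in controls (black squares). Dashed lines mark 2-fold. The 8 red points lie between -2.64 and -1.77, while the controls at such levels lie near 0.

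Control RNA that was spiked into both samples in equal amount gives a measure of the scaling at these levels. The 4 spiked-in probes with levels above 0 on both arrays differed by -0.02 to 0.02. The members' representative levels ran between 0.21 and 6.54. The surroundings of the 21 crystallin spots were read as well. The median difference of the other genes' spots within 5 rows and columns of each lay between -0.12 and 0.05. At dim levels the controls did not stay at 0. A spiked-in probe at -4.90 on the array labelled Mef2d KO and at -4.19 on the WT array differed by -0.74. Still dimmer ones differed by -1.81 and -1.15, with 0.0% of their spots well above background on the array labelled Mef2d KO. Dim genes named below therefore have less reliable differences than the members.

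Position in the genome was compared next. Cryba4 and Crybb1 are next to each other on mouse chromosome 5 in the RefSeq order of protein-coding genes, and so are Crybb2 and Crybb3 on the same chromosome. Cryba4 and Crybb1 differed by -1.84 and -2.00, whereas Crybb2 and Crybb3 had differences of -2.64 and -1.77. The other 4 members lie on chromosomes 17 (Cryaa), 9 (Cryab), 11 (Cryba1) and 1 (Cryba2). Over the 12 nearest measured genes on either side that are no members, 0 were 2-fold apart in either direction, with a median of -0.11 (0.08 with median scaling) and a range of -0.90 to 0.28. Hspb2, a small heat shock protein gene beside Cryab, differed by -0.47 ± 0.21, against -1.83 for Cryab itself.

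The gamma crystallins, which share the Greek key fold with the beta crystallins, were mixed. Of 8 genes, 2 passed 2-fold lower and 1 passed 2-fold higher, with a median of -0.21. Crygs, which encodes a gamma crystallin expressed late in lens development, had 7780 on the array labelled Mef2d KO and 31500 on the WT array, and its difference of -2.10 ± 0.20 lies within the range of the beta crystallins. Crygn, whose protein combines features of the beta and gamma families, differed by -2.91 ± 0.21. Crygf was higher, at 1.47 ± 0.20 by its brightest probe and 0.76 ± 0.20 by its other probe. The remaining 5, Cryga, Crygb, Crygc, Crygd and Cryge, stayed within 2-fold, between -0.34 (Crygc) and 0.53 (Cryge). Cryga to Crygf are close copies of each other, and how far their probes read one another's RNA was not tested.

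Small heat shock proteins other than Cryaa and Cryab were mixed too. Both arrays read 6 of them, and 2 passed 2-fold lower, with a median of -0.51. Hspb6, which encodes a small heat shock protein of muscle, differed by -3.68 ± 0.20. Hspb3, also a muscle member of the family, differed by -2.82 ± 0.32, and by -1.14 with normexp background, its level on the array labelled Mef2d KO being -5.52. Normexp background adds an offset of 50 to every signal, which by itself draws the differences of dim genes towards 0. Hspb8, a chaperone that works with BAG3, differed by -0.55 ± 0.20, and Hspb7 was lower by a bound of at least 2-fold. Such a bound sets the WT level against the higher of the lowest level well above background on the array labelled Mef2d KO and the probe's own level there. It holds only for the processed signal as scaled here. Hspb7 differed by -0.25 with normexp background.

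Of 7 genes with crystallin names but no lens crystallin of the alpha, beta or gamma kind, the non-lens beta-gamma domain genes and the enzyme crystallins, 0 were 2-fold apart and the median was -0.17. The furthest from 0 were Crybg2 (-0.79 ± 0.34, and -0.04 with normexp background), Crybg3 (-0.68 ± 0.20) and Crybg1 (-0.36 ± 0.21). The median was 0.00 with median scaling.

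Lens fibre genes that encode no crystallin were lower in part. Both arrays read 9 lens fibre membrane and cytoskeleton genes, of which 5 passed 2-fold lower and 1 passed 2-fold higher, with a median of -1.31. With normexp background 3 passed 2-fold lower and the median was -0.31. Its offset draws dim genes towards 0 by itself, so for them it is no separate check. Mip, the lens water channel, had a signal of 79.2 on the array labelled Mef2d KO and 1270 on the WT array (-4.09 ± 0.21). Grifin, a lens protein related to galectins, differed by -1.62 ± 0.21, and Bfsp2, a beaded filament protein, by -1.31 ± 0.20. Gja3, a connexin gene, was dim and differed by -1.53 ± 0.28, and by -0.45 with normexp background. Lim2, a lens membrane protein gene, was not well above background on the array labelled Mef2d KO. Its bound of 6.60-fold lower is its own difference of -2.72 ± 0.36, and so no lower limit (-0.92 with normexp background). Lgsn, the gene of the lens protein lengsin, was higher (1.62 ± 0.22). The 3 genes within 2-fold were Bfsp1, the partner of Bfsp2 in beaded filaments (0.30 ± 0.20), Birc7 (-0.06 ± 0.24) and Lctl (-0.16 ± 0.21).

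Transcription and RNA regulators of the lens mostly stayed near 0. Of 14, 1 was at least 2-fold lower, Foxe3, a factor of lens epithelium (-1.64 ± 0.31, and -0.52 with normexp background). Pitx3, a lens and neuronal homeobox factor, differed by -0.63 ± 0.22, and Mab21l1, needed for lens formation, by -0.45 ± 0.20. The median was -0.15, and 0.03 with median scaling. Maf, the lens MAF factor that binds MARE elements, differed by -0.22 ± 0.20.

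**Figure D4:**
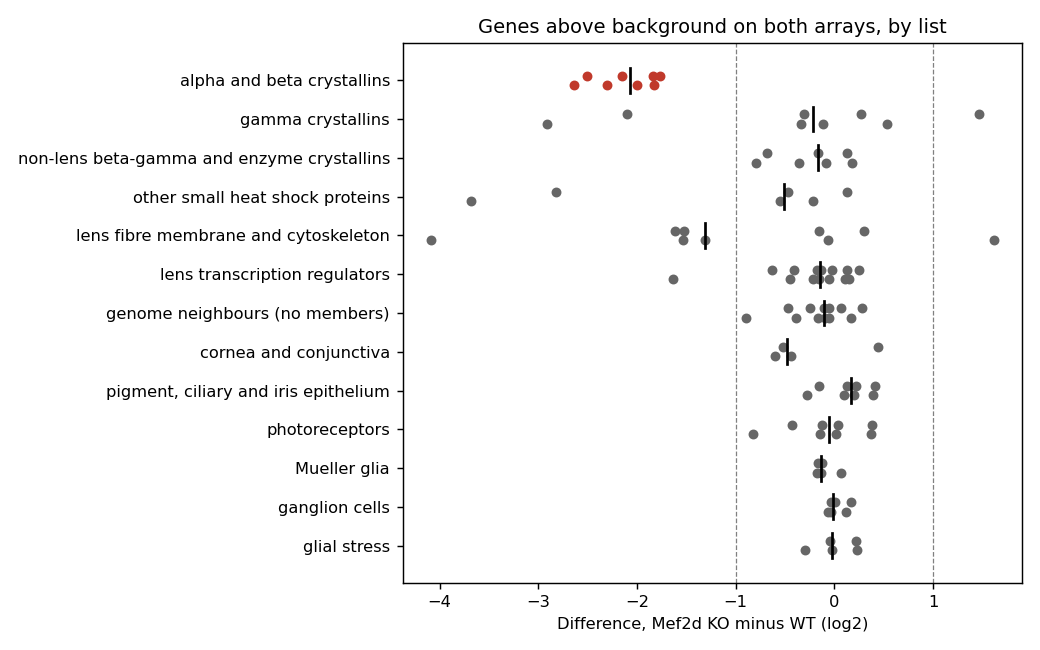
Difference (array labelled Mef2d KO minus WT, log2) of every gene well above background on both arrays, a point per gene, by list. Black bars are medians and dashed lines mark 2-fold. The alpha and beta crystallins (red, top) lie at or below -1.77, and the retinal cell type lists lie within 2-fold.

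Markers of the tissues that a dissected retina can hold were read beside the crystallins. The labelled tissue was checked by 8 photoreceptor markers, which were read on both arrays and stayed within 2-fold, with summed signals of 1040 times the 75th percentile on the array labelled Mef2d KO and 1170 times on the WT array. Of 11 lens markers 10 had a probe, 9 were read on both arrays, and Lim2 was not well above background on the array labelled Mef2d KO. Their summed signal was 1.48 times the 75th percentile on the array labelled Mef2d KO and 4.06 times on the WT array, and the summed signal of the 8 crystallins was 38.5 and 166 times. Of the 9, 6 were at least 2-fold lower, with a median of -1.52. With normexp background 3 were, with a median of -0.45. These markers are the lens fibre membrane and cytoskeleton genes with Lgsn (1.62) left out and Foxe3 (-1.64) added. The counts of both lists therefore rest largely on the same genes. The sources used here do not state a share of lens tissue in either sample, and its part in the crystallin result was not tested.

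Markers of the other tissues that both arrays read stayed within 2-fold by their representative probes. Of 6 cornea and conjunctiva markers, 4 were read on both arrays and 0 were 2-fold apart, with a median of -0.48 (-0.14 with normexp background), while Krt12 and Kera, defining genes of the corneal epithelium and stroma, were not well above background on either array. The summed signal of the 4 was 2.73 on the array labelled Mef2d KO and 3.86 on the WT array, in multiples of the 75th percentile. Most of it came from Aldh3a1, at levels of 1.35 and 1.86 on these arrays, while Krt5, Krt14 and Krt13 lay at or below -3.28. With the mean of all probes of a gene, 1 of the cornea and conjunctiva markers was at least 2-fold lower. Of 9 pigment, ciliary and iris epithelium markers, 8 were read on both arrays and 0 were 2-fold apart, with a median of 0.16. Neither were any of the 5 Mueller glia markers (median -0.14, and 0.04 with median scaling) or the 6 ganglion cell markers (median -0.01, and 0.17 with median scaling). Of 6 glial stress genes 5 were read on both arrays and stayed within 2-fold (median -0.02, and 0.16 with median scaling), and Edn2, an injury-induced endothelin, was lower by a bound of at least 3.08-fold (-0.24 with normexp background).

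The crystallin differences were recomputed under 8 other ways of processing the arrays. Crybb2 stayed between -2.69 and -2.46, Cryba2 between -2.53 and -2.33, and Cryba1 between -2.33 and -2.12. Cryaa had the widest range, -2.39 to -1.97, its lowest value being the mean of its 2 probes. Crybb1 lay between -2.02 and -1.82, Cryab between -1.87 and -1.66, Cryba4 between -1.85 and -1.66, and Crybb3 between -1.79 and -1.59. Every member was past 2-fold lower in each of these settings.

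**Figure D5:**
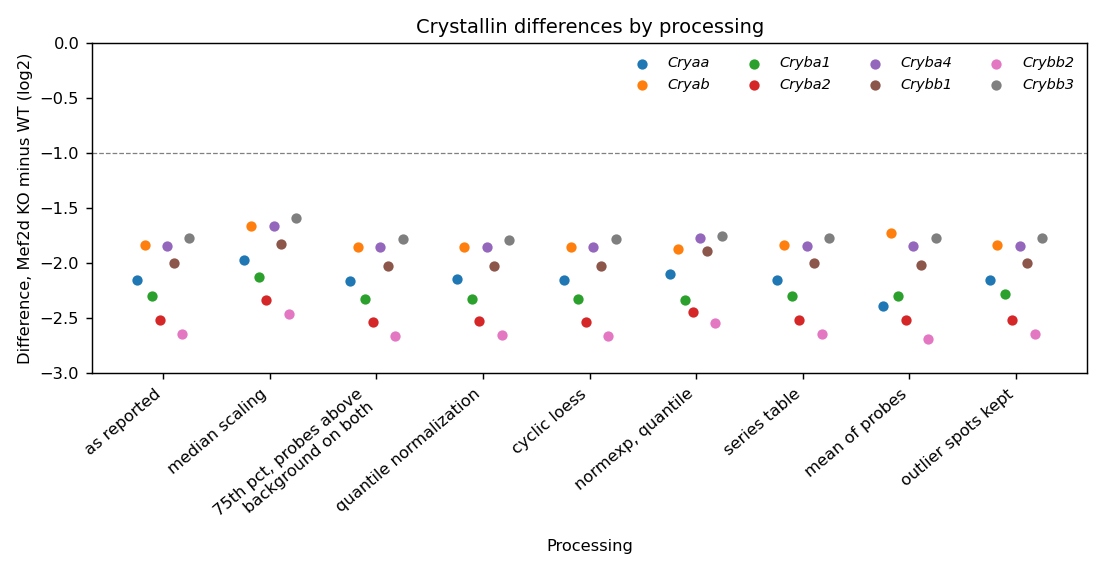
Difference (array labelled Mef2d KO minus WT, log2) of each of the 8 crystallins as reported and under 8 other ways of processing the arrays. The dashed line marks 2-fold lower. All points lie between -2.69 and -1.59.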

How the data were processed

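RNA was labelled with Cy3, per the labels' protocols. The intensity values deposited by the authors come from the software Agilent Feature Extraction 10.10.1.1, with background subtraction and spatial detrending, per the file headers. The deposited series table repeats these intensities times 1 constant per array (1.76 for Mef2d KO and 1.88 for WT), with column medians of 136.6 and 155.1. It is linear and not centred, and no source used here says how its constants were chosen.

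Processed signals were divided by each array's 75th percentile over all non-control spots (858 for Mef2d KO and 807 for WT) and log2 transformed. Outlier spots (126 and 106) were left out and spots of a probe averaged. Probes were named by RefSeq accession through the GRCm38.p6 table (27231 of 55669). The array design is on mm9, so no probe position was used. Promoter windows, their coordinates and the order of genes are those of GRCm38.p6. A gene's probe with the highest mean level represents it. The members, lists and named genes (at most the 3 largest differences of a list, the largest bounds, and genes that complete a count) were chosen with earlier results of these data known. The values of 1 gene that this rule names are not reported here, and the counts and medians of the lists include it. Genome neighbours were chosen by order alone. The code was tested on simulated data. Alternatives were other scalings, normexp background (offset 50, on median spot signals), the series table, the mean over probes, and kept outlier spots. Normalization used limma 3.58.1 in R 4.3.3. The rest used numpy 2.4.6 and pandas 2.3.3 in Python 3.11.15, and figures matplotlib 3.10.9. The number of arrays limits precision.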

Additional observations from a re-analysis of the deposited data

How the results depend on the processing

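On the array labelled Mef2d KO all 8 members stayed past 2-fold lower under each of the 8 other ways of processing the values (64 of 64 differences, -2.69 to -1.59), and their median lay between -2.16 and -1.90. These differences are not separate checks, since the series table repeats the reported ones by construction and some settings can change few members. At 4-fold 5 passed as reported, and this count moved. With median scaling Cryaa (-1.97) and Crybb1 (-1.82) fell short of 4-fold. With normexp background Crybb1 (-1.89) did. The background counts moved more. Genes at least 2-fold lower and higher numbered 281 and 100 as reported, 170 and 151 with median scaling, 164 and 157 with quantile normalization, 161 and 157 with cyclic loess, 95 and 63 with normexp background, and 1739 and 225 with no filter on dim probes. The reported counts are 1.74% and 0.618% of the 16187 genes read on both arrays. The last setting counts over all 20659 named genes, so its counts have another base. It adds dim genes, where the spiked-in controls are also lower. Median scaling moves every difference by the same amount, and the offset of normexp background draws dim genes towards 0. The cause of the shifts with quantile normalization and cyclic loess was not tested. The lens marker median moved to -0.45 and the lens fibre median to -0.31 with normexp background, and these lists share most of their genes. No paired analysis was possible because each group has 1 array. For the same reason no replicate could be left out.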
